A study of Mus musculus with 12 samples.

Results

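The aryl hydrocarbon receptor (AHR) pathway was followed through 7 genes in mouse embryonic stem cells (ESCs) and in the spheroids they form. These were the receptor gene *Ahr*, its partner *Arnt*, its repressor *Ahrr*, and the target genes *Cyp1a1*, *Cyp1b1*, *Tiparp* and *Nqo1*, out of 35580 genes summed from the transcript tables. All 7 passed the filter on low counts and were among the 17424 genes tested. *Cyp1a1* and *Cyp1b1* passed it through the spheroid groups alone, since both lay near 0 in ESCs. The genes were listed by name, and *Cyp1a1* was picked for the rise in CIDEA KO cells. Its fitted log2 fold change over all times was 2.41 with the default prior count of the fit. It ranked first among called genes whose log2 CPM averaged 1 or more and whose sign did not change between times. *Nnat* (1.60) and *Cxcl12* (1.26) came next. That filter used the contrast on which *Cyp1a1* was picked and is no test of it. With a prior count of 1 the value of *Cyp1a1* was 1.46, below the default value of *Nnat*, and ranks were not computed again at that setting. Among all genes tested *Cyp1a1* held rank 151 at the default, between *Fscn2* (2.41) and *Gm10337* (2.39). The difference of *Cyp1a1* between the genotypes is therefore given as a description with no test. The change of *Cyp1a1* and *Cyp1b1* from ESCs to spheroids is likewise described only, because a gene that passed the filter through the spheroids had to be higher there.

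RNA was sequenced from 6 groups with 2 libraries each. WT cells were the unedited R1 ESC line, and CIDEA KO cells were a clone derived from it by deleting the *Cidea* locus with CRISPR-Cas9, so that loss of *Cidea* and other differences of the clone cannot be told apart. At 0 h both were ESCs kept with LIF in 10% serum, and at 24 h and 48 h both were spheroids grown without LIF in 15% serum with growth factor-reduced Matrigel, so that time, medium and matrix changed together. The labels describe these spheroids as embedded in the matrix, while the methods of the study describe a culture on top of it for molecular experiments. *Cidea*, which encodes a protein of lipid droplet fusion, had 20 to 117 counts in the WT libraries and 0 counts in all 6 KO libraries. The libraries held 29 to 38.51 M estimated counts, and 3 counts, taken as the lowest detectable level, corresponded to 0.0797 to 0.105 CPM (counts scaled to normalised library size), a limit that covers counting error only. At equal depth replicate 1 of KO at 24 h detected 15473 genes and the other libraries 17635 to 19672, so the values of that library are given apart where a result rests on it. The summed level of 10 pluripotency markers was 6300 to 6950 CPM in the libraries at 0 h and 3190 to 3430 CPM at 48 h. That of 6 hepatocyte markers, from the tissue in which Cyp1a enzymes are best known, was at most 0.47 CPM in any library, with *Alb* and *Cyp3a11* at 0 throughout. In bulk samples such as these, fewer cells expressing a gene and less RNA per cell cannot be told apart.

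AHR is a transcription factor of the basic helix-loop-helix PAS family that waits in the cytoplasm, bound to HSP90 chaperones, until it binds a planar aromatic ligand such as a dioxin, a plant indole or a product of tryptophan. It then enters the nucleus, pairs with ARNT and binds short DNA motifs with the core GCGTG near its target genes. *Cyp1a1* and *Cyp1b1* encode cytochrome P450 enzymes that oxidise many AHR ligands, and *Cyp1a1* is the textbook readout of the active receptor. *Tiparp* encodes an ADP-ribosyltransferase and *Ahrr* a receptor-like repressor, and both restrain AHR once induced. *Nqo1* encodes a quinone reductase that answers to AHR and to NRF2, the regulator of the response to oxidants.

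The sequences before the start sites of 3 members are shown because they hold the motif core in the genes whose levels moved most (*Cyp1a1* and *Cyp1b1*) and in the gene with the most matches (*Ahrr*). Each run gives the 250 bases before the RefSeq start on GRCm38.p6, 5′ to 3′ on the strand of the gene, with the core GCGTG or its reverse complement CACGC in capitals. They lie at chr9:57697363-57697612 (forward strand, *Cyp1a1*), chr17:79715062-79715311 (reverse strand, *Cyp1b1*) and chr13:74292332-74292581 (reverse strand, *Ahrr*).
Cyp1a1: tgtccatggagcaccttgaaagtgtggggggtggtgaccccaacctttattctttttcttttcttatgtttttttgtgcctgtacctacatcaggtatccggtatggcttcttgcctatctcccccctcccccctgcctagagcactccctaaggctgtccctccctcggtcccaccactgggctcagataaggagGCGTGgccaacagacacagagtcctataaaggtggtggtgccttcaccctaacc
Cyp1b1: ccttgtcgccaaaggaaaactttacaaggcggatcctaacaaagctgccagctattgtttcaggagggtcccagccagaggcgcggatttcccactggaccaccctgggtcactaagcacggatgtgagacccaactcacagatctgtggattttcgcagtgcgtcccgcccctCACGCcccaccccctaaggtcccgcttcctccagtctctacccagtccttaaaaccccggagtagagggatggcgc
Ahrr: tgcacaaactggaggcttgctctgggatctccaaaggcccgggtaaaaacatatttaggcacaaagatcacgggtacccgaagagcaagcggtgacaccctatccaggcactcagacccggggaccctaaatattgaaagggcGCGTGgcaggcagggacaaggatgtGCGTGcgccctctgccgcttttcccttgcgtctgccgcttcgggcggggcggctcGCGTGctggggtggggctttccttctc
The match lay 54 bases before the start in *Cyp1a1* and 76 bases before it in *Cyp1b1*, and *Ahrr* held matches at 107, 82 and 27 bases. *Arnt* (29 bases) and *Tiparp* (170 bases) held 1 match each, and *Nqo1* held none. Thus 5 of 6 members with a RefSeq promoter held GCGTG on either strand, beside 28.2% of 32851 promoters of the same length. The longer motif TNGCGTG, which contains the shorter one, was found within the 250 bases in 1 of the 6 (*Ahrr*) and in 4.1% of all promoters. Bases farther from the start were not searched, so a gene without a match here may hold the motif elsewhere. A match is a run of letters and does not show binding. No promoter entry was used for *Ahr*.

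The members differed in their course over time. *Ahr* rose from ESCs to spheroids in both genotypes, *Tiparp* fell in both by 24 h, and *Arnt*, *Ahrr* and (outside WT at 24 h) *Nqo1* did not pass the test. *Cyp1a1* and *Cyp1b1* were near 0 in ESCs and higher in every spheroid library. The counts that follow leave out these last genes and cover the 5 members that had reads in every library. In WT, 3 of 5 were called at 24 h against 0 h (2 higher, 1 lower), where 15.0% of all genes tested were called (7.54% higher, 7.47% lower), and 2 at 48 h (1 higher, 1 lower), where 23.6% were called (11.1% higher, 12.5% lower). In CIDEA KO, 2 were called at 24 h (1 higher, 1 lower), beside 18.6% of all genes (9.24% higher, 9.33% lower), and 1 at 48 h (higher), beside 25.0% (12.1% higher, 12.8% lower). The libraries of the compared groups did not overlap for 4 of 5 members at 24 h and at 48 h in WT, beside 55.4% and 60.6% of all genes. In KO this held for 4 members at 24 h and 5 at 48 h, beside 55.1% and 66.1% of all genes. Called means a p under 0.05 in the quasi-likelihood test of edgeR after adjustment across the 17424 genes (Benjamini-Hochberg). The plot of levels by time shows each member in every library.

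**Figure D1:**
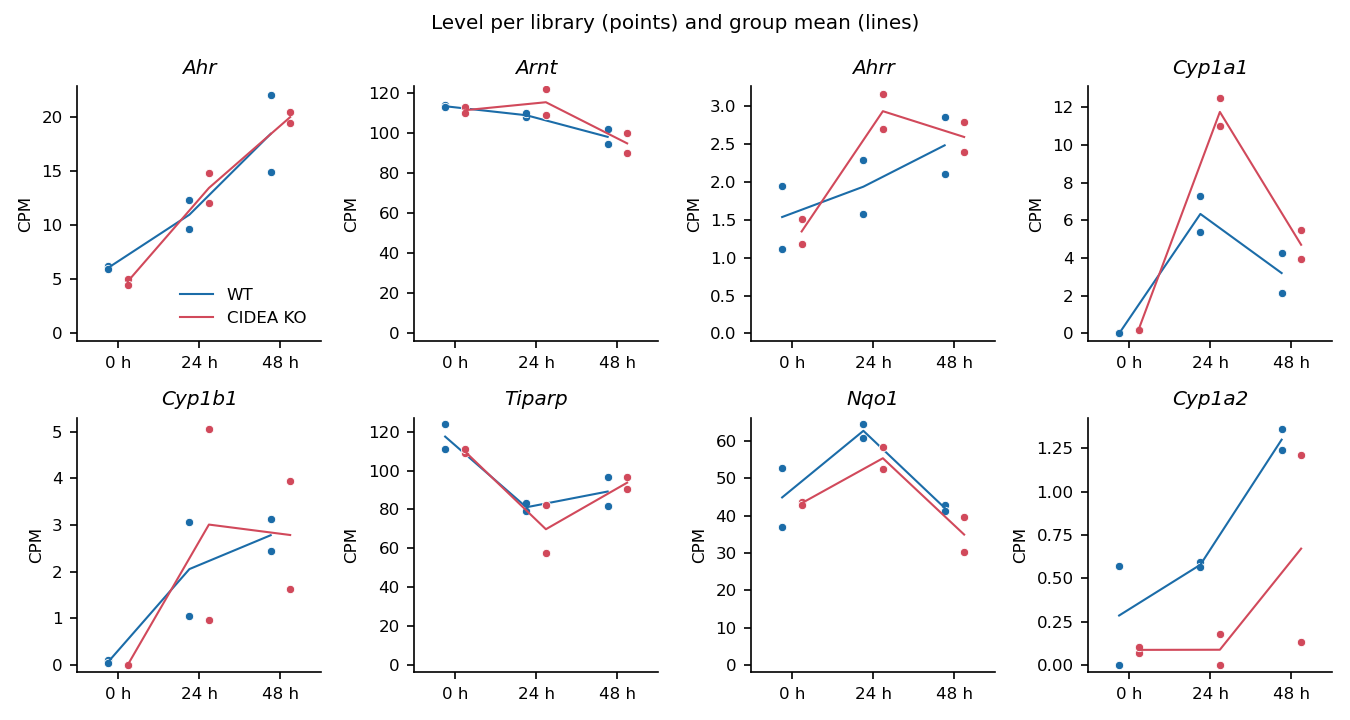
Level in CPM (vertical axes) of the 7 members and of *Cyp1a2* in WT (blue) and CIDEA KO (red) at 0, 24 and 48 h. Each point is 1 library and each line joins the group means. *Cyp1a1* lies at 0 to 0.21 CPM in all 4 ESC libraries and at 2.14 to 12.5 CPM in all 8 spheroid libraries.

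*Ahr* (ENSMUSG00000019256, chromosome 12, 35497974 to 35535038, reverse strand, GRCm38), the receptor, rose at each time point. In WT it stood at 6.20 and 5.94 CPM at 0 h, 9.66 and 12.3 CPM at 24 h, and 22.0 and 14.9 CPM at 48 h. In CIDEA KO it stood at 5.08 and 4.52 CPM at 0 h, 12.1 and 14.8 CPM at 24 h, and 20.5 and 19.5 CPM at 48 h. In both genotypes every library at 24 h lay above those at 0 h, and every library at 48 h lay above those at 24 h. Against 0 h, the log2 fold change in WT was 0.85 at 24 h (SE 0.24, adjusted p = 0.018) and 1.60 at 48 h (SE 0.24, adjusted p = 4.1e-05). In KO it was 1.49 at 24 h (SE 0.24, adjusted p = 0.00015) and 2.06 at 48 h (SE 0.24, adjusted p = 2e-06). Of the estimated counts of *Ahr*, 95.7% fell on the protein-coding transcript with 11 exons. The call at 24 h in WT was lost without replicate 1 or replicate 2 of WT at 0 h (0.89 and 0.84, adjusted p = 0.073 and 0.098) and without replicate 2 of WT at 24 h (0.67, adjusted p = 0.178). It was also lost with average transcript lengths as offsets (0.54, adjusted p = 0.286), and on log2(TPM + 1) with limma the call at 24 h in KO was lost too (0.84, adjusted p = 0.060).

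*Arnt* (ENSMUSG00000015522, chromosome 3, 95434388 to 95497240, forward strand), the partner that AHR needs to bind DNA, was far more abundant and nearly flat. Its libraries lay between 89.9 and 122 CPM. The group means ran from 114 ± 0.234 CPM (SD, n = 2) at 0 h to 98.2 ± 5.27 CPM at 48 h in WT, and from 111 ± 1.99 to 95 ± 7.18 CPM in KO. Both libraries at 48 h lay below both at 0 h in each genotype. The log2 fold changes were -0.21 in WT (SE 0.089, adjusted p = 0.10) and -0.23 in KO (SE 0.089, adjusted p = 0.074), and neither was called. The fall in KO was called without replicate 1 (-0.24, adjusted p = 0.035) or replicate 2 (-0.23, adjusted p = 0.046) of KO at 24 h, which are not part of that comparison. *Ahrr* (ENSMUSG00000021575, chromosome 13, 74211118 to 74292331, reverse strand), the repressor, was low. It stood at 1.12 and 1.95 CPM in WT at 0 h, 2.29 and 1.58 CPM at 24 h, and 2.10 and 2.86 CPM at 48 h. In KO it stood at 1.18 and 1.51 CPM at 0 h, 3.16 and 2.70 CPM at 24 h, and 2.79 and 2.39 CPM at 48 h. The groups at 0 h and 24 h overlapped in WT and did not in KO. The log2 fold changes against 0 h were 0.33 (SE 0.61) and 0.69 (SE 0.61) in WT and 1.12 (SE 0.61) and 0.95 (SE 0.61) in KO, with adjusted p = 0.812, 0.482, 0.240 and 0.314. None was called, and the standard errors show that changes of this size were not resolved at 34 to 108 counts per library. Only 57.9% of the counts of *Ahrr* fell on its longest protein-coding transcript, and 18.1% fell on a transcript with a retained intron.

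*Cyp1a1* (ENSMUSG00000032315, chromosome 9, 57687928 to 57703824, forward strand) was silent or nearly so in ESCs and present in every spheroid library. It had 0 counts in both WT libraries at 0 h, 246 and 191 counts at 24 h, and 63 and 152 counts at 48 h. In CIDEA KO it had 6 and 6 counts at 0 h, 426 and 376 counts at 24 h, and 148 and 158 counts at 48 h. In CPM the spheroid values were 7.31 and 5.37 at 24 h and 2.14 and 4.27 at 48 h in WT, and 12.5 and 11 at 24 h and 3.93 and 5.48 at 48 h in KO. Both genotypes were highest at 24 h, and in each every library at 24 h lay above both at 48 h. Against the limit of 3 counts per library, *Cyp1a1* in WT was at least 63.6-fold higher at 24 h than at 0 h and at least 32.1-fold higher at 48 h. By the lower library of each group the bounds were 53.8 and 21.4. In KO it was 56.2-fold higher at 24 h, with an exact 95% interval of 32.0 to 109 from the counts, and 22.0-fold higher at 48 h (12.4 to 43.0). These intervals cover counting error only, not the spread between libraries, and are no test of the rise.

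All estimated counts of *Cyp1a1* fell on the transcript that starts at 57697613, which is the base after the promoter run printed above, and none on the second transcript, which starts at 57687928. Of the 31-base words of the counted transcript, 96.6% also occur in the second one, so the division between the transcripts rests on few bases. *Cyp1a2*, its neighbour and paralog on the other strand, starts at 57683703. That lies 4.2 kb from the annotated gene start of *Cyp1a1* at 57687928 and farther from the start of the counted transcript at 57697613. The counted transcript shared 152 of 2591 words (5.87%) with *Cyp1a2* and 0 with *Cyp1b1*. Reads from the stretches shared with *Cyp1a2* could be assigned to either gene.

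*Cyp1b1* (ENSMUSG00000024087, chromosome 17, 79701537 to 79715061, reverse strand), the second CYP1 enzyme, was also near 0 in ESCs and higher in spheroids. Its group means in spheroids lay below those of *Cyp1a1*. They were 2.05 CPM at 24 h and 2.78 CPM at 48 h in WT, and 3.01 and 2.79 CPM in KO. Unlike those of *Cyp1a1*, the libraries at 24 h and 48 h overlapped in both genotypes. *Cyp1b1* had 3 and 1 counts in WT at 0 h, 35 and 109 at 24 h, and 72 and 111 at 48 h. In KO it had 0 counts in both libraries at 0 h, 33 and 172 at 24 h, and 61 and 114 at 48 h. Every spheroid library lay above every ESC library, while replicates of a group differed by up to several fold. In WT the ratio to 0 h was 31.3 at 24 h (exact 95% interval from the counts 12 to 116) and 42.3 at 48 h (16.2 to 157). These intervals pool the libraries of each group and cover counting error only. They leave out the spread between libraries and are no test of the rise. In KO *Cyp1b1* was at least 28.8-fold higher at 24 h and at least 26.6-fold higher at 48 h than the limit of 3 counts at 0 h. By the lower library of each group these bounds were 9.24 and 15.5.

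*Tiparp* (ENSMUSG00000034640, chromosome 3, 65528410 to 65555518, forward strand), which restrains AHR, went the other way. In WT it stood at 111 and 124 CPM at 0 h, 83.3 and 79.0 CPM at 24 h, and 96.8 and 81.7 CPM at 48 h. In KO it stood at 109 and 111 CPM at 0 h, 57.4 and 82.3 CPM at 24 h, and 96.8 and 90.8 CPM at 48 h. Each spheroid library lay below each ESC library of its genotype, and the lowest value was that of replicate 1 of KO at 24 h. The log2 fold change at 24 h was -0.53 in WT (SE 0.13, adjusted p = 0.010) and -0.65 in KO (SE 0.13, adjusted p = 0.0020). At 48 h it was -0.40 in WT (adjusted p = 0.037) and -0.23 in KO (adjusted p = 0.258, not called). The fall in KO at 24 h was called under every alternative run, between -0.92 and -0.42. That in WT at 24 h was lost without replicate 2 of WT at 0 h (-0.44, adjusted p = 0.114) or replicate 1 (-0.56, adjusted p = 0.065) or 2 (-0.50, adjusted p = 0.090) of WT at 24 h. That in WT at 48 h was lost without replicate 1 (-0.47, adjusted p = 0.062) or 2 (-0.31, adjusted p = 0.245) of WT at 0 h, replicate 2 of WT at 48 h (-0.27, adjusted p = 0.289), either library of WT at 24 h (-0.40, adjusted p = 0.054 for both) or either library of KO at 48 h (-0.39, adjusted p = 0.052 for both).

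*Nqo1* (ENSMUSG00000003849, chromosome 8, 107388225 to 107403206, reverse strand), the quinone reductase, was highest at 24 h. In WT it stood at 37.1 and 52.7 CPM at 0 h, 64.6 and 60.9 CPM at 24 h, and 43.0 and 41.2 CPM at 48 h. In KO it stood at 43.7 and 43.0 CPM at 0 h, 58.3 and 52.5 CPM at 24 h, and 30.3 and 39.6 CPM at 48 h. In both genotypes the libraries at 24 h lay above all others of that genotype. Its log2 change between 0 h and 24 h was 0.48 in WT (SE 0.15, adjusted p = 0.033) and 0.36 in KO (SE 0.15, adjusted p = 0.112, not called). The WT call was lost without replicate 1 of WT at 0 h (0.26, adjusted p = 0.371) or replicate 1 (0.45, adjusted p = 0.191) or 2 (0.53, adjusted p = 0.086) of WT at 24 h. At 48 h the difference from 0 h was -0.09 in WT (adjusted p = 0.743) and -0.31 in KO (adjusted p = 0.153), and the latter was called without replicate 2 of KO at 48 h (-0.51, adjusted p = 0.047).

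**Figure D2:**
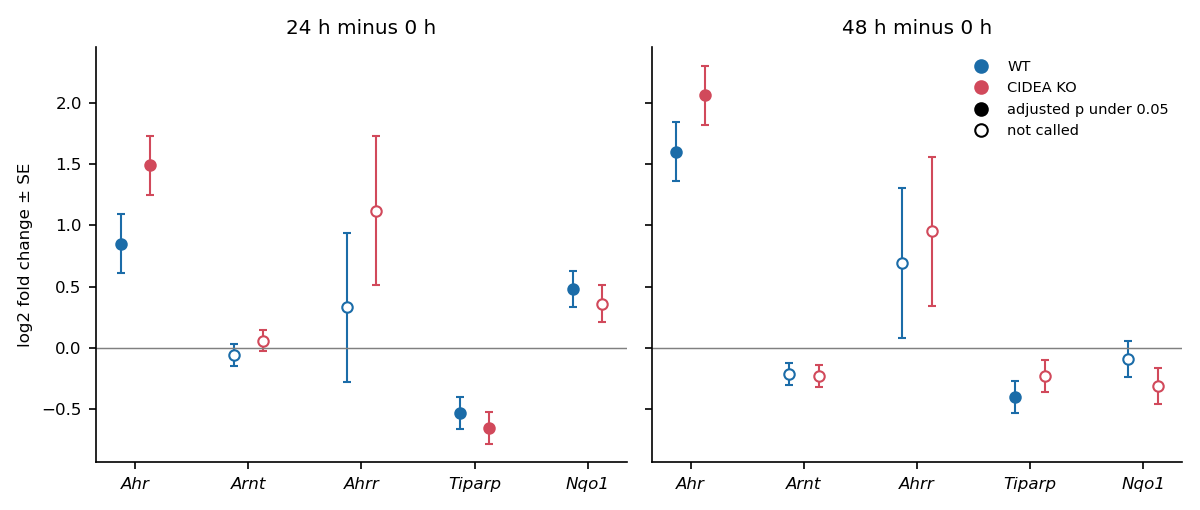
log2 fold change against 0 h (vertical axis) with its standard error for the 5 members that had counts in all groups, at 24 h (left) and 48 h (right), in WT (blue) and CIDEA KO (red). Filled points passed an adjusted p of 0.05. *Ahr* is filled in all 4 places, from 0.85 to 2.06, and *Tiparp* lies below 0 in all 4, from -0.65 to -0.23.

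Scaled for transcript length, the members spanned a wide range of levels. Over the 12 libraries the mean was 48.7 TPM for *Nqo1* (30.1 to 67.4), 46.6 TPM for *Arnt* (38.2 to 57.3) and 34.8 TPM for *Tiparp* (20.3 to 46.3). These 3 overlapped in range. *Ahr* followed at 3.85 TPM (1.34 to 7.35), *Cyp1a1* at 2.55 TPM (0 to 7.27), *Ahrr* at 2.09 TPM (0.718 to 4.90) and *Cyp1b1* at 0.51 TPM (0 to 1.51), and each of these overlapped the next. No library of the lower 4 genes reached the lowest library of the upper 3. At its highest, in KO at 24 h, *Cyp1a1* stood at 6.99 ± 0.395 TPM (SD, n = 2), close to the 6.58 ± 1.10 TPM of *Ahr* in KO at 48 h.

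Whether loss of *Cidea* altered the pathway was asked by comparing CIDEA KO with WT at each time and over all times. *Cyp1a1*, picked on this contrast, was higher in KO in both libraries at 0 h, where 6 and 6 counts stood against 0 and 0, a difference of at least 2.1-fold over the limit of 3 counts. At 24 h its counts were 802 in KO and 437 in WT in all, a ratio per depth of 1.86. Both KO libraries lay above both WT libraries. At 48 h the ratio was 1.39, and the groups overlapped at 3.93 CPM in KO and 4.27 CPM in WT. These ratios leave out the spread between libraries. Since *Cyp1a1* was picked on this contrast, none of its values here tests the difference. On the fitted scale the difference was 0.89 at 24 h and 0.55 at 48 h. The fitted value over all times rested on the 0 counts of WT at 0 h, since it was 2.41 with the default prior count of the fit, 1.46 with a prior count of 1 and 1.19 with a prior count of 2. At 24 h and 48 h the prior count moved it by less than 0.01.

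None of the other 6 members was called between the genotypes, at 0 h, 24 h, 48 h or over all times. Of all genes tested, 1.26% were called at 0 h (0.275% higher, 0.987% lower), 1.46% at 24 h (0.448% higher, 1.02% lower), 0.671% at 48 h (0.195% higher, 0.476% lower) and 5.03% over all times (2.19% higher, 2.84% lower). At an unadjusted p under 0.05 there was 1 at 0 h, *Cyp1b1*, and 0 elsewhere. Of the 17424 genes, 1745 had such a p at 0 h, 2177 at 24 h, 1349 at 48 h and 2932 over all times. Both genotypes of *Cyp1b1* were at or under 3 counts at 0 h, so no fold is given, and at 24 h its difference was 0.55 (SE 0.85, adjusted p = 0.842) with overlapping libraries, and -1.08 without replicate 2 of KO at 24 h. Over all times the differences were 0.02 for *Ahr* (SE 0.14, adjusted p = 0.981), 0.16 for *Ahrr* (SE 0.35, adjusted p = 0.904), -0.08 for *Tiparp* (SE 0.076, adjusted p = 0.678) and -0.17 for *Nqo1* (SE 0.086, adjusted p = 0.349). For *Arnt* the difference was 0.00 (SE 0.052). The widest gaps among members with counts in all groups were those of *Ahr* at 0 h (-0.34, SE 0.24, adjusted p = 0.731), *Ahrr* at 24 h (0.60, SE 0.60, adjusted p = 0.734) and *Ahr* at 24 h (0.30, SE 0.23, adjusted p = 0.652). *Nqo1* was lower in KO at 48 h by -0.27 (SE 0.15, adjusted p = 0.758) with no overlap. *Tiparp* differed by -0.22 at 24 h (SE 0.13, adjusted p = 0.536), a value that 1 library decided. It was 0.02 without replicate 1 of KO at 24 h and -0.50 without replicate 2 (adjusted p = 0.0052), and over all times it was called without that replicate 2 (-0.18, adjusted p = 0.044). The groups did not overlap for 4, 2 and 1 of the 6 members at 0, 24 and 48 h, beside 43.2%, 39% and 41.4% of all genes.

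**Figure D3:**
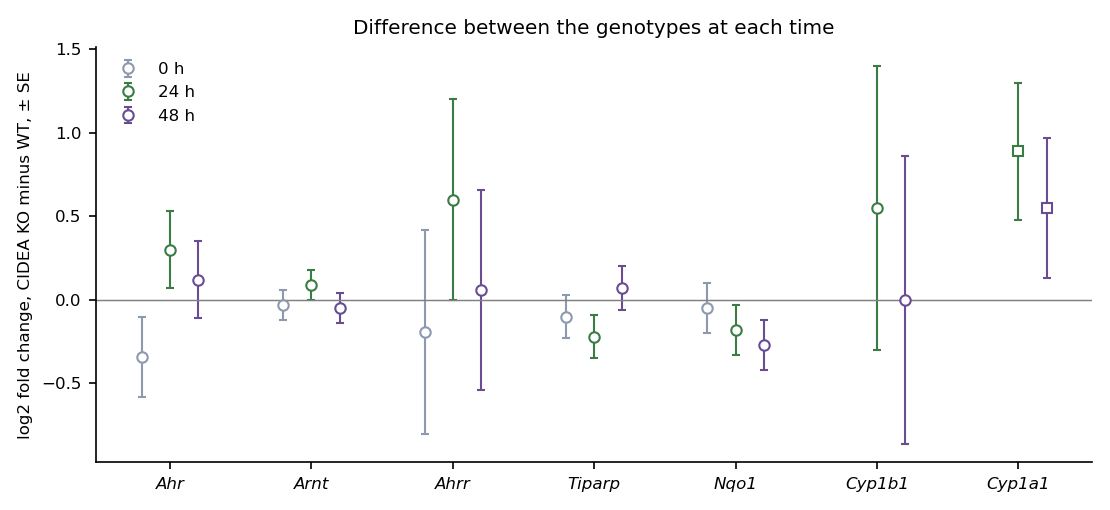
log2 fold change of CIDEA KO minus WT (vertical axis) with its standard error at 0 h (grey), 24 h (green) and 48 h (purple). Squares mark *Cyp1a1*, which was picked on this contrast and was not tested, so its bars are no test of the difference. Open circles mark members that were not called. *Cyp1a1* and *Cyp1b1* at 0 h are not drawn because a group had 0 counts. *Cyp1a1* lies at 0.89 and 0.55, and *Ahr* runs from -0.34 at 0 h to 0.30 at 24 h.

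Whether the course over time differed between the genotypes was tested with interaction terms, which compare the KO minus WT difference in spheroids with that in ESCs. None of the 6 members tested was called at 24 h (0.0115% of all genes called, 0.00574% in each direction) or 48 h (0.0402% called, 0.0344% higher and 0.00574% lower). An unadjusted p under 0.05 was reached by 1 at 24 h (*Cyp1b1*) and 0 at 48 h, beside 1029 and 1003 of 17424 genes. The term of *Cyp1b1* rested on 3 and 1 counts in WT at 0 h and 0 in both KO libraries. As *Cyp1b1* passed the filter through the spheroids alone, its term is no fair test of the course. *Ahr* rose more in KO by 0.63 at 24 h on the log2 scale (SE 0.33, adjusted p = 0.855), which was not called. The comparisons within a genotype and between genotypes share libraries, so their values were not set against each other beyond these tests.

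The genes whose levels followed *Cyp1a1* most closely across the 12 libraries (log2 CPM, prior count 2) were *Cxcl12* (Pearson r = 0.980, Spearman rho = 0.902), *Asb6* (0.978, 0.930), *Rfwd3* (0.978, 0.909), *Id3* (0.977, 0.965) and *Snrnp40* (0.977, 0.965). The 12 points share 6 groups and the step from ESCs to spheroids, so these coefficients are descriptions. *Cxcl12*, a chemokine gene, rose from a group mean of 0.05 CPM at 0 h to 24.5 and 22.9 CPM at 24 h and 48 h in WT, and from 0.332 to 37.8 and 32.7 CPM in KO. *Id3*, a target of BMP signalling, was at 34.9, 134 and 98.0 CPM in WT and 38.4, 160 and 113 CPM in KO, with its peak at 24 h. The opposite end held *Acss1* (r = -0.983), *Cnot8* (-0.983), *Dpp7* (-0.977), *Pepd* (-0.976) and *Ftl1-ps1* (-0.975), the last a pseudogene that can share reads with its parent. Among the members, r and rho with *Cyp1a1* were 0.863 and 0.615 for *Cyp1b1*, and 0.762 and 0.406 for *Ahr*. They were 0.759 and 0.741 for *Ahrr*, and 0.284 and 0.427 for *Nqo1*. For *Arnt* they were -0.28 and -0.224, and for *Tiparp* -0.846 and -0.881.

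*Cyp1a2*, the third CYP1 gene and by annotated start the nearest neighbour of *Cyp1a1*, had 0 and 17 counts in WT at 0 h, 20 and 20 at 24 h, and 40 and 44 at 48 h. In KO it had 2 and 3 counts at 0 h, 0 and 6 at 24 h, and 5 and 35 at 48 h. It was thus at 0 to 6 counts in the KO libraries at 0 h and 24 h, while *Cyp1a1* was highest in KO at 24 h. None of its comparisons was called, the difference over all times being -1.76 (SE 1.1, adjusted p = 0.449). Of 19 genes starting within 250 kb of *Cyp1a1*, 16 were tested, and none was called between the genotypes. With time 2 were called in WT at 24 h (1 higher, 1 lower), 3 in WT at 48 h (1 higher, 2 lower), 3 in KO at 24 h (2 higher, 1 lower) and 4 in KO at 48 h (1 higher, 3 lower), *Rpp25* among them each time. Of all genes tested, 15.0%, 23.6%, 18.6% and 25.0% were called in these comparisons.

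None of the other known AHR target genes that could be tested was called higher in spheroids. Of 20 listed, 8 passed the filter on low counts, and in each of the 4 comparisons with ESCs 4 were called lower and 0 higher, beside 7.47%, 12.5%, 9.33% and 12.8% of all genes called lower in WT at 24 h, WT at 48 h, KO at 24 h and KO at 48 h. *Slc7a5*, a transporter of large neutral amino acids that include tryptophan, was at 346 and 350 CPM in WT and 475 and 452 CPM in KO at 0 h, and at 200 and 187 CPM in WT and 185 and 217 CPM in KO at 48 h. It was lower in all 4 comparisons, by -0.66 and -0.84 in WT and -0.96 and -1.21 in KO at 24 h and 48 h (SE 0.077 or 0.078, highest adjusted p = 4.5e-06), and kept these calls under every alternative. *Slc7a5* was also higher in KO than in WT at 0 h by 0.41 (SE 0.077, adjusted p = 0.0061). That call was lost without replicate 1 of WT at 0 h (0.41, adjusted p = 0.064) or replicate 1 of KO at 0 h (0.39, adjusted p = 0.089). *Cyp2s1*, another P450 gene, fell by 1.68 on the log2 scale in KO at 48 h (SE 0.28, adjusted p = 0.00014), from 25.9 and 18.6 CPM to 7.94 and 5.93 CPM. *Socs2*, a suppressor of cytokine signalling, was lower in all 4 comparisons, as in KO at 48 h (-0.54, SE 0.11, adjusted p = 0.00093). *Gsta2* was at 0 in all ESC libraries and at 3.16 CPM in 1 spheroid library, replicate 1 of KO at 24 h, beside at most 0.394 CPM in the other libraries.

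The list of AHR chaperones, coactivators and PAS-family relatives held 20 genes, of which 19 were tested. At 24 h 0 were called in WT and 4 in KO (2 higher, 2 lower), and at 48 h 8 in WT (3 higher, 5 lower) and 9 in KO (4 higher, 5 lower). The shares of all genes called were 15.0% and 18.6% at 24 h and 23.6% and 25.0% at 48 h in WT and KO. The coactivator gene *Ncoa3* was at 318 and 320 CPM in WT at 0 h and at 216 and 226 CPM at 48 h, and was lower at 48 h in WT (-0.53, SE 0.067, adjusted p = 6.7e-06) and in KO (-0.65, SE 0.068, adjusted p = 3.7e-07). *Hsp90ab1*, an HSP90 chaperone gene, was higher at 48 h in WT (0.24, SE 0.049, adjusted p = 0.00091). *Epas1*, which encodes a hypoxia-inducible partner of ARNT, was lower at 48 h in WT (-0.72, SE 0.11, adjusted p = 5.9e-05). Between the genotypes over all times 2 of 19 were called higher, beside 2.19% of all genes, *Hsp90ab1* (0.10, adjusted p = 0.045) and *Ncoa3* (0.16, adjusted p = 0.019). These calls were lost without any of 10 libraries for *Hsp90ab1* and 4 for *Ncoa3*.

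Of 24 genes listed as NRF2 targets, the other group to which *Nqo1* belongs, 23 were tested. With time 7 were called in WT at 24 h (5 higher, 2 lower), 11 in WT at 48 h (7 higher, 4 lower), 12 in KO at 24 h (7 higher, 5 lower) and 11 in KO at 48 h (8 higher, 3 lower), beside 15.0%, 23.6%, 18.6% and 25.0% of all genes. The direction was mixed. *Txnrd1*, a thioredoxin reductase gene, was at 210 and 226 CPM in WT at 0 h and 344 and 317 CPM at 24 h, and at 214 and 231 CPM and 339 and 326 CPM in KO. Its log2 fold changes lay between 0.58 and 0.68 in all 4 comparisons (SE 0.071, highest adjusted p = 6.4e-06). *Gclm*, the modifier subunit for glutathione synthesis, was higher at 48 h by 1.02 in WT (SE 0.099, adjusted p = 1.7e-07). *Srxn1*, a sulfiredoxin gene, was lower at 48 h in KO by -1.05 (SE 0.15, adjusted p = 1.7e-05), and the autophagy receptor gene *Sqstm1* by -0.52 (SE 0.073, adjusted p = 1.7e-05). *Nfe2l2*, which encodes NRF2 and stands on both target lists, was lower at 24 h in KO by -0.57 (SE 0.10, adjusted p = 0.00039). *Keap1*, a regulator of NRF2 that is also on the list, was called higher in all 4 comparisons with ESCs (0.53 to 0.73). The counts of this list thus take in regulators of the response as well as its targets. Between the genotypes over all times 4 of 23 were called, beside 5.03% of all genes. Of these 1 was higher, the haem oxygenase gene *Hmox1* (0.32, SE 0.053, adjusted p = 0.00076). The other 3 were lower, *Pgd*, *Gstm1* and *Blvrb* (-0.21, -0.28 and -0.41). *Pgd* was called at 0 h (-0.51, SE 0.081, adjusted p = 0.0016) and neither at 24 h (-0.1) nor at 48 h (-0.03). The *Hmox1* call held under every alternative run, with values of 96.9 and 93.4 CPM in WT and 113 and 113 CPM in KO at 0 h. The call of *Pgd* was kept when any 1 library was left out and lost with limma on both TPM scales (highest adjusted p = 0.148) and with transcript lengths as offsets (adjusted p = 0.108), and those of *Gstm1* and *Blvrb* were lost without any of 9 and 7 libraries.

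Among 16 enzymes that make or break tryptophan-derived ligands, 12 were tested. With time 3 were called in WT at 24 h (all higher), 2 in WT at 48 h (1 higher, 1 lower), 2 in KO at 24 h and 3 in KO at 48 h (all higher), beside 15.0%, 23.6%, 18.6% and 25.0% of all genes. *Ddc*, aromatic amino acid decarboxylase, was at 28.4 and 25.9 CPM in WT at 0 h and 45.3 and 49.7 CPM at 24 h, a log2 fold change of 0.81 (SE 0.14, adjusted p = 0.00044). Over all times 2 of 12 were called between the genotypes (0 higher, 2 lower), beside 2.84% of all genes called lower. *Ddc* was lower in KO by -0.29 (SE 0.082, adjusted p = 0.049). *Maoa*, a monoamine oxidase gene, was lower in KO by -0.40 (SE 0.071, adjusted p = 0.0015). The *Maoa* call was kept when any 1 library was left out and lost with limma on both TPM scales. At 24 h the same difference was -0.59 (adjusted p = 0.016) and was lost without replicate 1 or 2 of WT at 24 h (-0.64 and -0.54, adjusted p = 0.102 and 0.143). All 6 genes of P450 support were tested. Of these, 2 were called in WT at 24 h (1 higher, 1 lower) and 3 in each other comparison with ESCs (2 higher, 1 lower). Of all genes, 15.0% and 23.6% were called in WT at 24 h and 48 h, and 18.6% and 25.0% in KO. *Cyb5r3*, a cytochrome b5 reductase gene, was lower in each comparison with ESCs, from 212 and 210 CPM to 136 and 141 CPM at 48 h in WT (-0.61, SE 0.073, adjusted p = 3e-06). Its partner *Cyb5a* was higher at 48 h in WT (0.41, SE 0.093, adjusted p = 0.0025) and KO (0.61, SE 0.094, adjusted p = 4.8e-05). *Por*, the reductase that passes electrons to CYP1 enzymes, lay between 45.9 and 57.1 CPM in all libraries and was not called in any comparison.

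**Figure D4:**
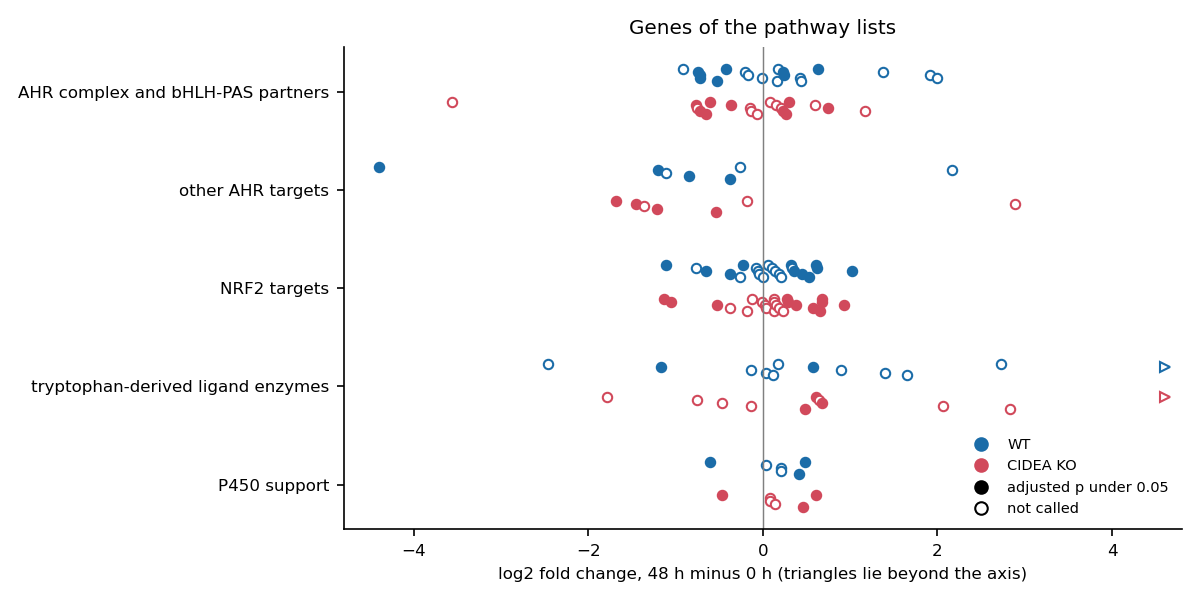
log2 fold change from 0 h to 48 h (horizontal axis) of each tested gene of the 5 lists in WT (blue) and CIDEA KO (red). Filled symbols passed an adjusted p of 0.05, triangles lie beyond the axis, and genes with both libraries of a compared group at 0 are not drawn. Every filled symbol among the other AHR targets lies below 0.

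Markers of cells other than pluripotent ones were counted beside the higher levels of *Cyp1a1*, *Cyp1b1* and *Ahr* in spheroids. The summed level of 12 fibroblast markers was 29.3 to 33.4 CPM in WT at 0 h, 26.2 to 27.1 CPM at 24 h and 33.5 to 33.8 CPM at 48 h, and 18.7 to 26.4 CPM over the KO libraries, with *Postn* at 0 throughout and 0 of 8 tested markers called with time and 1, *Thy1*, called lower in KO over all times. That of 12 markers of primitive or visceral endoderm was 20.8 to 24.3 CPM in WT at 0 h and 30.2 to 32.7 CPM in WT spheroids, and 17.9 to 18.8 CPM and 22.4 to 27.6 CPM in KO. Of 9 endoderm markers tested, *Dab2* was called higher in all 4 comparisons and *Cubn* in both at 24 h, with *Ttr* at 0 in every library. The sum of 8 trophoblast markers was 27.7 to 37.2 CPM over all libraries. Of these, *Eomes* was called higher in WT at 48 h and in KO at 24 h and 48 h (group means 8.28, 11.9 and 21.7 CPM in WT and 7.19, 13.6 and 20.7 CPM in KO at 0, 24 and 48 h), *Cdx2* was called higher in KO at 48 h, and *Tead4* was called lower in all 4 comparisons. The sum of 4 mesoderm markers was 1.26 to 5.14 CPM, with 0 of 3 tested called. The sum of 6 markers of 2-cell-like cells was 0.791 and 2.32 CPM at 0 h, 4.25 and 5.32 CPM at 24 h and 7.50 and 6.88 CPM at 48 h in WT, and 0 to 1.44 CPM in KO. Of these, 0 of 4 tested were called with time and *Zscan4c* was called lower in KO over all times. Of the 10 pluripotency markers, *Utf1* was called higher in all 4 comparisons with ESCs, while 7 and 9 were called lower at 24 h and 48 h in WT and 6 and 9 in KO. *Zfp42* and *Klf4* were called higher in KO than in WT at 0 h, at 24 h and over all times. The part of these cells in the levels of the members was not tested.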

How the data were processed

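Stranded mRNA libraries from 12 samples (2 genotypes, 3 times, 2 replicates) had been trimmed with Trimmomatic 0.33 and quantified with kallisto 0.43.1 by the authors, per the labels. The deposited tables give estimated counts (not scaled, not whole) and TPM (scaled for effective length and depth by the authors) for 115270 transcripts; the transcript set and its version were not given in the sources used here. Transcripts were matched by identifier to GENCODE M21 on GRCm38 (98.5%); unmatched ones held 0.659% to 0.709% of counts and were left out. Counts and TPM were summed per gene, and count sums were rounded.

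Groups and replicate numbers came from the sample titles; replicates were separate samples, and p-values measure the spread between them. edgeR 4.0.16 under R 4.3.3 was run on the gene counts (TMM, filterByExpr, robust quasi-likelihood, one mean per group over all 12 libraries), with Benjamini-Hochberg adjustment over 17424 genes and a threshold of 0.05. A standard error is the log2 fold change divided by the square root of F. Replicate pairs gave chi-square statistics between 11.2 and 32.7 times their degrees of freedom, so none was a copy. The biological coefficient of variation was 0.311. Depth and its limit of 3 counts stand in the report; without molecular identifiers, intervals and limits describe counting error alone. Promoters came from a RefSeq table of GRCm38.p6.

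The members, pathway lists and markers were chosen with earlier results of these data known. Named were the members, listed genes that passed the test or lie at either end, neighbours within 250 kb, the 5 genes most and least like *Cyp1a1*, and those next to it in rank; *Gsta2*, *Por* and *Cyp1a2* were singled out after their values were seen. The fit was tested on simulated counts with 100 genes changed 2-fold and 100 changed 4-fold between the genotypes. It recovered 51 to 56 and 60 to 63 of these at a single time, and 64 and 71 over all times. There were 6 to 17 false calls. A gene not called between the genotypes may thus still have changed. Alternatives were DESeq2 1.42.0, its size factors in edgeR, no filter, at least 10 counts in every library, limma 3.58.1 on log2(TPM + 1) and log2(TPM + 0.1), transcript lengths as offsets, only the groups compared, each library left out, and a replicate block.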

Additional observations from a re-analysis of the deposited data

How the results depend on the processing

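Of 8 called changes with time among the 5 members with reads in every library, 3 held under every alternative: those of *Ahr* at 48 h in both genotypes and of *Tiparp* in KO at 24 h. The counts that follow take in *Cyp1a1* and *Cyp1b1*, which passed the filter through the spheroids alone, and are given for their shifts only. Members called in WT at 24 h fell from 5 to 3 with at least 10 counts in every library, with transcript lengths as offsets or with only the groups compared, and to 1 with limma on log2(TPM + 1) or log2(TPM + 0.1); with 1 library left out they were 2 to 5. Of all genes, 23.4%, 7.56%, 16.6%, 7.82% and 7.44% were called in WT at 24 h under these settings before the leaving out of libraries, in the order given. The main fit called 15.0%. In WT at 48 h and in KO at 24 h there were 2 with at least 10 counts or with limma on log2(TPM + 1). Of all genes, 35.1% and 15.1% were then called in WT (main fit 23.6%) and 28.6% and 9.28% in KO (main fit 18.6%). In KO at 48 h there was 1 with at least 10 counts and 5 with only the groups compared. Of all genes, 37.0% and 39.5% were then called, beside 25.0% in the main fit. The minimum of 10 counts takes *Cyp1a1* and *Cyp1b1* out of the fit; the cause of the other shifts was not tested. With 1 library left out, 0 to 1 members were called between the genotypes at 24 h and over all times.

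Some values that were not called changed sign. *Ahrr* was -0.03 in WT at 24 h and -0.07 in KO at 48 h with transcript lengths as offsets. Over all times *Ahr* differed between the genotypes by -0.01 with limma on log2(TPM + 0.1) and by -0.02 with lengths as offsets, and *Arnt* by -0.01 with DESeq2, its size factors or at least 10 counts. With 1 library left out the values ran from -0.01 to 0.79 for *Ahrr* in WT at 24 h, from -0.32 to 0.19 for *Nqo1* in WT at 48 h, from -0.06 to 0.13 for *Ahr* and from -0.03 to 0.03 for *Arnt* over all times, from -0.50 to 0.02 for *Tiparp* and from -1.08 to 1.53 for *Cyp1b1* between the genotypes at 24 h. Among listed genes, 38 of 110 called values held throughout, and 1 changed sign, *Arnt2* in WT at 48 h, from 0.63 to -0.71 and -0.81 with limma on log2(TPM + 1) and log2(TPM + 0.1) and -0.87 with lengths as offsets.

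Genes called over all genes ranged from 18 to 436 between the genotypes at 0 h, 13 to 2327 at 24 h, 19 to 303 at 48 h and 189 to 2506 over all times, and from 1296 to 3543 in WT at 24 h, 2487 to 5178 in WT at 48 h, 1598 to 5142 in KO at 24 h 2506 to 6165 in KO at 48 h, 0 to 1070 for the interaction at 24 h and 0 to 123 for that at 48 h. Leaving out 1 library leaves a group with 1, which is then assumed to vary like the other groups. The highest count at 24 h between the genotypes came without replicate 2 of KO at 24 h, where replicate 1, the library with few genes detected, stood alone. Higher calls between the genotypes over all times were 43.6% of calls, beside 31% with lengths as offsets and 23.8% with limma on log2(TPM + 1); at 0, 24 and 48 h the shares were 21.8%, 30.6% and 29.1%, beside 10%, 10% and 4.35% with that scale. Libraries with the same replicate number did not deviate together (correlations 0.003, 0.051 and -0.009 at 0, 24 and 48 h); with the replicate block, 218, 255 and 117 genes were called between the genotypes at 0, 24 and 48 h, beside 220, 255 and 117 without it.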
